A study of Mus musculus with 19 samples.

Results

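Dntt, Rag1, Il7r, Ltb, Ccr9, Satb1 and Notch1 are genes of early lymphocyte development, and their RNA is often used to trace lymphoid priming in multipotent blood cells. These 7 genes, of the 20660 that could be named on the arrays, were picked by symbol through the RefSeq accession that the scanner files give for each probe. Each gene was followed over 7 bone marrow cell types with its brightest probe. Rag1 and Notch1 had 2 probes each, and the other 5 genes had 1.

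Lymphoid priming is the transcription of lymphocyte genes in cells that have not yet chosen a lineage. In mouse bone marrow it is known from lymphoid-primed multipotent progenitors, a Flt3-rich part of the lineage-negative cells with Kit and Sca-1 on their surface. These cells can still form lymphocytes and myeloid cells, whereas progenitors further down the myeloid and erythroid paths have lost most lymphoid potential. The 7 genes stand for different steps of the lymphoid path, from receptors for growth factors and thymus homing to the enzymes that assemble and diversify antigen receptor genes.

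Total RNA of sorted adult bone marrow cells of C57BL/6 mice aged 8 to 12 weeks was hybridised to 19 custom Agilent arrays in a study of long noncoding RNAs in blood formation. No treatment or altered allele is given for any group. Stem and multipotent cells (LSK, 3 arrays) were lineage-negative, Kit-positive and Sca-1-positive. The other progenitors were lineage-negative, Kit-positive and Sca-1-negative. Among them, common myeloid progenitors (CMP, 3 arrays) were CD16/32 low and CD34 high, megakaryocyte erythroid progenitors (MEP, 3 arrays) were low for both, and granulocyte macrophage progenitors (GMP, 2 arrays) were high for both. Early erythroblasts (2 arrays) were Ter119-positive, large and CD44 high, late erythroblasts (3 arrays) were Ter119-positive, small and CD44 intermediate, and granulocytes (3 arrays) were sorted as Gr1-positive cells. The labels do not say whether replicates came from separate animals, and the p-values measure only how far these arrays spread, which may be technical.

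A level is given throughout as log2 of the background-corrected intensity set against the 75th percentile of that array, so that a level of 0 equals that percentile, and levels of different probes cannot be set against each other. The 75th percentile was 50.1 to 81.3 intensity units on the 5 erythroblast arrays and 265.6 to 606.5 on the other 14, and 42.9% to 47.1% and 49.5% to 66.3% of spots were well above background. A gene that is not well above background therefore sits at a higher relative level on erythroblast arrays than elsewhere. In sorted bulk samples, fewer cells with a transcript and less transcript per cell cannot be told apart. All 10 stem and multipotent cell markers searched for, among them Procr, Hlf and Mecom, were well above background on every LSK array, and their summed level was 43.3 to 54.4 times the 75th percentile in CMP and 158 to 167 times in LSK cells. Neutrophil markers were well above background for 7 or 8 of 8 on every array of all 7 cell types. All 11 B cell markers were so on every granulocyte array.

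The promoters of the 5 genes that were lower in CMP, MEP and GMP than in LSK cells are shown because these genes share that call. Each is the RefSeq window of build GRCm38.p6 from 250 bases before to 50 bases after the start of the gene, 5′ to 3′ on the coding strand, with matches to the searched motifs in capitals. The motifs were CANNTG (the E-box, bound by E proteins such as E2A), TGTGGT (RUNX), TGGGAA (a core shared by Ikaros and RBPJ), GAGGAAGT (a PU.1-type ETS site) and GATAAG, a site of GATA factors, on both strands. Dntt lies at chr19:41029025-41029324 on the plus strand, Rag1 at chr2:101649483-101649782 on the minus strand, Il7r at chr15:9529827-9530126 on the minus strand, Ltb at chr17:35194257-35194556 on the plus strand and Ccr9 at chr9:123766961-123767260 on the plus strand.
Dntt: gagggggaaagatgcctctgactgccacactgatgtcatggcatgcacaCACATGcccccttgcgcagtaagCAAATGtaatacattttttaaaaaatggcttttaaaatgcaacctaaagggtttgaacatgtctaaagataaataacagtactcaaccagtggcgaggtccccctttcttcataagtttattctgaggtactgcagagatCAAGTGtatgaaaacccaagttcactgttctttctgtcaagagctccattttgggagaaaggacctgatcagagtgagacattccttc
Rag1: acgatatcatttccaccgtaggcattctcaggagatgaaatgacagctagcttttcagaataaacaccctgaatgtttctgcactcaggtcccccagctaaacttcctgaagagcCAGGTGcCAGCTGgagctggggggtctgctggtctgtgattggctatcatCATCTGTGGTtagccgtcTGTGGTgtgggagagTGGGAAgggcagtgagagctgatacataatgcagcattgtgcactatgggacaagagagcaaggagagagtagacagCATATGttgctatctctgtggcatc
Il7r: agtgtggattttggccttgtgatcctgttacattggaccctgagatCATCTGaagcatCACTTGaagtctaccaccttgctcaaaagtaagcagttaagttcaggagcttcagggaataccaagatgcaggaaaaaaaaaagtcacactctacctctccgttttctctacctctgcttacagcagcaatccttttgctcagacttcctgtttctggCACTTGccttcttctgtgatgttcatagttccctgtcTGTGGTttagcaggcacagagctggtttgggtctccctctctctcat
Ltb: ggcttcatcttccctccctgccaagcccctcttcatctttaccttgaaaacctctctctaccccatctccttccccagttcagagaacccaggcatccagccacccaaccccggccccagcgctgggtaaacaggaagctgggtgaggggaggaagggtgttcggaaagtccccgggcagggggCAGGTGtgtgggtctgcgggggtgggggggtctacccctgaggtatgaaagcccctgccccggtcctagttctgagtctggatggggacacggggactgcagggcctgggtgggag
Ccr9: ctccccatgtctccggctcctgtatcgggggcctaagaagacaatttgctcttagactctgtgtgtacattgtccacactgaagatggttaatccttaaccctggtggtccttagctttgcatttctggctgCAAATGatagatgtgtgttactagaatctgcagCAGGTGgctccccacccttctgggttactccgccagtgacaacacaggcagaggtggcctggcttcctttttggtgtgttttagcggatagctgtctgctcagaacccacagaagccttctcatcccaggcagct

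All 5 windows held an E-box, 3 in Dntt, 4 in Rag1, 3 in Il7r, 1 in Ltb and 2 in Ccr9, and so did 72.3% of the 32851 RefSeq mouse promoter windows. Rag1 had 2 RUNX matches, the first of them overlapping an E-box by 2 bases, and Il7r had 1, starting 3 bases after the start of the gene. The RUNX letters were found in 16.8% of all windows. Rag1 also had 1 match to the Ikaros and RBPJ core, which 25.6% of windows held. None of the 5 windows held the ETS letters (3.2% of windows) or the GATA letters (7.44%). The Notch1 window held no match to any of the 5 motifs. These matches describe letters in the windows and show no binding.

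Dntt, which encodes terminal deoxynucleotidyl transferase, the polymerase that adds untemplated bases at antigen receptor joints, had levels of 7.22, 7.89 and 7.33 on the LSK arrays. It stood at 4.76, 4.70 and 4.73 in CMP and at 5.39, 4.11 and 5.55 in MEP. Levels were far lower in the more mature cells and in GMP, with -1.20 and -0.46 in early erythroblasts, 0.32, 0.16 and 0.09 in late erythroblasts, 0.12 and -0.68 in GMP, and -0.40, -0.41 and -0.31 in granulocytes. The LSK arrays lay above all others, CMP and MEP overlapped each other, and no array of the remaining 4 cell types came near them. Dntt was 6.74-fold lower in CMP than in LSK cells (log2 difference -2.75 ± 0.33 SE, limma adjusted p = 1.2e-05) and 5.53-fold lower in MEP (-2.47 ± 0.32, adjusted p = 4.7e-05). In GMP it was 217-fold lower than in LSK cells (-7.76 ± 0.36, adjusted p = 9.9e-10) and 32.2-fold lower than in CMP (-5.01 ± 0.36, adjusted p = 1.4e-07). Its probe was well above background on all 19 arrays, so these folds compare measured signals. The distance from the highest to the lowest cell type mean was 8.31 log2 units, a 317-fold range.

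Rag1, the catalytic subunit of the recombinase that cuts antigen receptor genes, had levels of -2.04, -1.97 and -2.18 in granulocytes and -2.32, -1.23 and -1.75 in LSK cells, and was well above background on all 6 of these arrays. It was well above background on none of the 3 CMP arrays, on 2 of 3 MEP arrays (-4.46, -3.84 and -4.75, the last not above it), on 1 of 2 early erythroblast arrays (-3.25 and -1.83, the second above it), and on no late erythroblast or GMP array. Granulocyte, LSK and early erythroblast arrays overlapped, and neither granulocytes nor LSK cells overlapped CMP, MEP or GMP. Rag1 was at least 9.09-fold lower in CMP than in LSK cells (adjusted p = 7.5e-07), 5.99-fold lower in MEP (log2 difference -2.58 ± 0.35, adjusted p = 6.0e-05) and at least 4.73-fold lower in GMP (adjusted p = 4.6e-07). Such a bound sets the mean of the brighter cell type against the dimmest probes that were still well above background on the arrays of the other. Here and below, the adjusted p beside a bound is that of the fitted difference, which takes in levels at background. The bound itself was not tested. All of this rests on 1 probe, since the other Rag1 probe was well above background on none of the 19 arrays. Rag2, the other subunit of the recombinase, was also lower in CMP (-1.58 ± 0.32, adjusted p = 0.0013), MEP (-2.04 ± 0.32, adjusted p = 2.3e-04) and GMP (-2.43 ± 0.36, adjusted p = 7.0e-05), but stayed well above background on every array of these 3 groups. In granulocytes Rag2 was well above background on none of 3 arrays and at least 15.5-fold lower than in LSK cells (adjusted p = 6.0e-09), whereas Rag1 differed by -0.30 ± 0.35 (adjusted p = 0.46).

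Il7r encodes the alpha chain of the interleukin-7 receptor, which early lymphocytes need to survive and divide. Its levels were -0.82, -0.05 and -0.48 in LSK cells, -2.83, -2.60 and -2.94 in CMP, -1.97, -1.42 and -1.31 in MEP, and -0.23, -0.32 and -0.40 in granulocytes. It was not well above background on any early erythroblast, late erythroblast or GMP array. LSK cells and granulocytes overlapped at the top, MEP came next and CMP last among the 4 groups with signal, with no overlap between these last 2. Il7r was 5.06-fold lower in CMP than in LSK cells (-2.34 ± 0.21, adjusted p = 9.9e-07), 2.17-fold lower in MEP (-1.12 ± 0.21, adjusted p = 9.2e-04) and at least 11.8-fold lower in GMP (adjusted p = 4.4e-10). MEP exceeded CMP by 1.22 ± 0.21 (adjusted p = 0.0049), and GMP were at least 2.33-fold lower than CMP (adjusted p = 2.4e-07), a difference that became -0.41 (adjusted p = 0.12) with normexp background correction, which adds 50 to every signal. The common gamma chain Il2rg, the partner of the alpha chain, fell by 1.85 ± 0.44 in CMP (adjusted p = 0.0042) and fell by 1.93 ± 0.50 in GMP (adjusted p = 0.0054), and differed by -1.22 ± 0.44 in MEP (adjusted p = 0.051).

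Ltb, which encodes lymphotoxin beta, a membrane ligand that lymphoid cells use in building lymphoid organs, had levels of 5.09, 5.10 and 5.14 in granulocytes and 5.90, 5.58 and 5.66 in LSK cells. Levels were 1.26, 0.62 and 0.78 in CMP, 2.19, 2.48 and 2.55 in MEP, and 0.20 and 0.30 in GMP. Early erythroblasts had -1.09 and -1.68, and late erythroblasts 0.12, -0.47 and -1.64. The cell types followed each other without overlap from LSK through granulocytes, MEP, CMP, GMP and late erythroblasts, and only the 2 erythroblast groups overlapped. Ltb was 28.4-fold lower in CMP than in LSK cells (-4.83 ± 0.32, adjusted p = 6.5e-08), 9.89-fold lower in MEP (-3.31 ± 0.32, adjusted p = 3.1e-06) and 44.2-fold lower in GMP (-5.47 ± 0.36, adjusted p = 3.2e-08). MEP exceeded CMP by 1.52 ± 0.32 (adjusted p = 0.015). Ltbr, the receptor for lymphotoxin beta, followed another order: it differed by 0.21 ± 0.22 in CMP against LSK cells (adjusted p = 0.51) and was higher by 0.97 ± 0.25 in GMP (adjusted p = 0.0056).

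Ccr9, the receptor for the chemokine CCL25 that draws progenitors to the thymus, had levels of 1.40, 1.43 and 1.20 in LSK cells. It stood at -3.70, -3.60 and -2.85 in CMP, -2.57, -2.93 and -3.39 in MEP, -3.75 and -3.89 in GMP, and -0.62, -0.61 and -0.80 in granulocytes. Early erythroblasts had -2.04 and -1.96, and late erythroblasts -2.49, -3.41 and -3.32, of which only the first was well above background. LSK cells lay above all other arrays, granulocytes came next, and the progenitors and late erythroblasts were close together at the bottom, where CMP overlapped MEP and late erythroblasts. Ccr9 was 26.4-fold lower in CMP than in LSK cells (-4.72 ± 0.26, adjusted p = 1.1e-08), 19.8-fold lower in MEP (-4.30 ± 0.26, adjusted p = 3.5e-08) and 35.8-fold lower in GMP (-5.16 ± 0.29, adjusted p = 7.2e-09).

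Satb1 encodes a chromatin organiser needed in T cell development. Its levels were 4.09, 3.93 and 3.73 in LSK cells, 2.78, 2.96 and 3.23 in CMP, 2.65, 2.08 and 2.42 in MEP, 2.17 and 1.83 in GMP, and 3.33, 3.42 and 3.34 in granulocytes. Early erythroblasts had -4.77 and -1.71, and late erythroblasts -1.23, -3.21 and -2.44, with 1 of 2 and 2 of 3 arrays well above background. LSK arrays lay above all others without overlap, yet the test passed in neither CMP (-0.93 ± 0.58, adjusted p = 0.24) nor MEP (-1.54 ± 0.58, adjusted p = 0.058). The SE of Satb1 comes from all 7 cell types, where the early erythroblast arrays stood far apart. In fits of the 2 compared groups alone, the adjusted p was 0.0065 in CMP and 0.0023 in MEP. GMP differed from LSK cells by -1.92 ± 0.65 (adjusted p = 0.026), a call that ended with the array of LSK replicate 1, written LSK 1, left out (adjusted p = 0.062), likewise for LSK 2 (0.054), GMP 1 (0.074) and GMP 2 (0.13), and with the slide as a block (0.063).

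Notch1, the receptor whose activation commits progenitors to the T lineage, had a pattern that differed between its probes. The brighter probe had levels of 0.26, -1.24 and 0.01 in LSK cells, -0.12, 0.70 and 0.87 in CMP, -1.14, -0.79 and -0.89 in MEP, and 1.75 and 2.19 in GMP. Early erythroblasts had 0.18 and 1.83, late erythroblasts 0.13, 1.89 and 1.41, and granulocytes 0.54, 0.35 and 0.29. GMP lay above the LSK, CMP, MEP and granulocyte arrays, the erythroblasts overlapped both GMP and LSK arrays, and LSK arrays overlapped CMP and MEP arrays, which were apart from each other. GMP exceeded LSK cells 4.91-fold (2.30 ± 0.55, adjusted p = 0.0033), and CMP differed by 0.81 ± 0.49 (adjusted p = 0.22). The dimmer Notch1 probe gave another picture, with levels of -2.80, -2.02 and -3.06 in LSK cells, -3.97, -3.53 and -3.57 in CMP, and -3.42 and -3.78 in GMP. By that probe the difference from LSK cells was -1.07 in CMP (adjusted p = 0.040) and -0.98 in GMP (adjusted p = 0.077), and it was not well above background on any erythroblast array. MEP had -4.03, -5.23 and -5.88 by the dimmer probe, the last not well above background, and lay below LSK cells by both probes (-0.61 ± 0.49, adjusted p = 0.39, or -0.85 and 0.021 with the slide as a block, by the brighter and -2.42, adjusted p = 2.1e-04, by the dimmer one). The probes had a correlation of -0.03 over the 19 arrays, and their directions differed in CMP, GMP and both erythroblasts against LSK cells. Both probes carry the same RefSeq accession, and which transcripts each one detects was not tested.

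**Figure D1:**
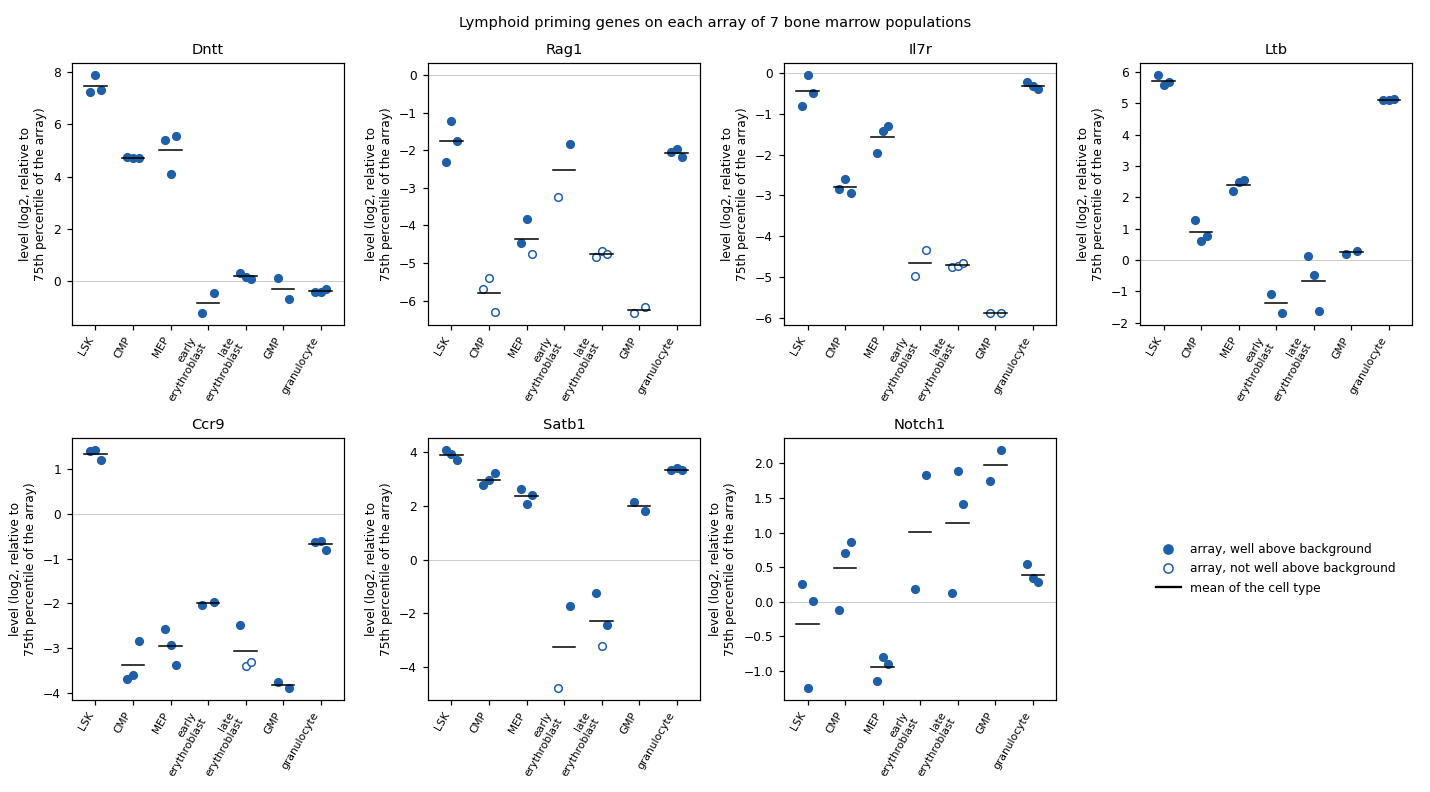
Level of each of the 7 genes (vertical axes, log2 of the intensity over the array's 75th percentile) on every array, by cell type in the order of the stages. Filled points are well above background, open points are not, and lines are cell type means. Dntt, Ltb, Ccr9 and Satb1 are highest in LSK cells, Il7r, Ltb, Rag1 and Ccr9 stand higher in granulocytes than in GMP, and Notch1, by its brighter probe, is highest in GMP.

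**Figure D2:**
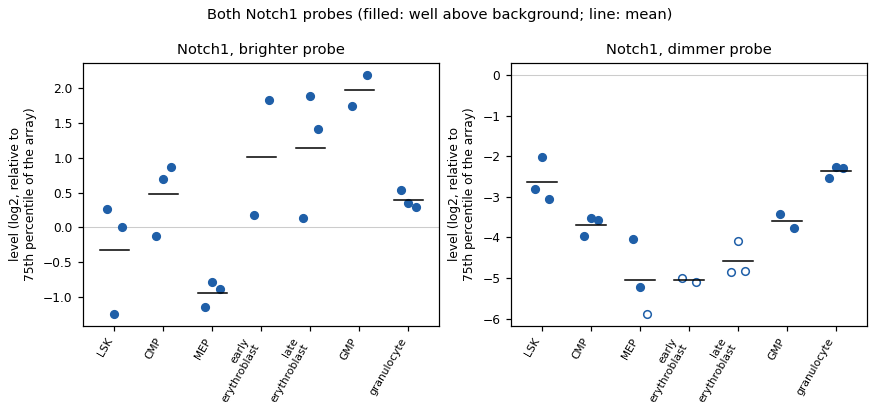
Level of Notch1 on every array by its brighter and its dimmer probe (vertical axes, log2 of the intensity over the array's 75th percentile), by cell type. Filled points are well above background, open points are not, and lines are means. GMP are highest by the brighter probe at 1.75 and 2.19, whereas LSK cells and granulocytes are highest by the dimmer one.

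Across the comparisons with LSK cells, most of the 7 genes were lower in the progenitors and erythroblasts, and 2 were lower in granulocytes. These 6 comparisons share the 3 LSK arrays and are not independent of each other. In CMP 5 of the 7 genes were lower and none higher, where 36.8% of 24182 features were called in either direction, 23.3% higher and 13.5% lower. The median fitted difference of the 7 genes was -2.75, against 0.17 for all features. In MEP the same 5, Dntt, Rag1, Il7r, Ltb and Ccr9, were lower (30.1% of features called, 18.3% higher and 11.9% lower), with a median difference of -2.47 against 0.14. In GMP these 5 and Satb1 were lower and Notch1 higher by its brighter probe (43.9% called, 27.8% higher and 16.1% lower), with a median of -5.16 against 0.23, or -3.56 with Rag1 and Il7r at their bounds. On slides that held arrays of both cell types, the differences of those of the 5 genes that were well above background in both cell types ran from -5.12 (Ltb) to -2.12 (Il7r) in CMP and from -8.01 (Dntt) to -5.09 (Ccr9) in GMP. In MEP those of Dntt, Ltb and Ccr9 ran from -4.79 (Ccr9) to -1.67 (Dntt), and those of Il7r were -0.94 and -0.48, smaller than the fitted -1.12.

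The erythroblasts, which descend from MEP, had low levels of Dntt, Ltb, Il7r, Ccr9 and Satb1. Early erythroblasts were lower than LSK cells for 5 genes and higher for 1, where 79.6% of features were called, 43.3% higher and 36.3% lower, and late erythroblasts were lower for 6 and higher for 1, where 81.0% were called, 37.7% higher and 43.4% lower. On shared slides the differences ran from -9.09 to -3.16 for Dntt, Ltb and Ccr9 in early and from -7.57 to -5.46 for Dntt and Ltb in late erythroblasts. In early erythroblasts Dntt was 317-fold lower, Ltb was 137-fold lower (-7.10 ± 0.36, adjusted p = 1.3e-10), Satb1 was lower with a fitted difference of -7.16 ± 0.65 (adjusted p = 8.1e-08) that takes in 1 array not well above background, and Il7r was at least 5.36-fold lower. Rag1 differed by -0.77 ± 0.39 (adjusted p = 0.081), and passed with the slide as a block (-0.94, adjusted p = 0.034), with quantile scaling (0.0089), with the percentile over detected probes (0.015) and without LSK 1 (0.029) or early erythroblast 2 (0.0042). In late erythroblasts Dntt was 157-fold lower, Ccr9 was lower with a fitted difference of -4.41 ± 0.26 (adjusted p = 4.9e-10) that takes in 2 arrays not well above background, Il7r was at least 4.70-fold lower, and Rag1 was at least 1.89-fold lower, although its direction turned with normexp background correction (0.33, adjusted p = 0.10). With the mean of both its probes, Rag1 did not pass there (-0.19, adjusted p = 0.55). Notch1 was higher by its brighter probe in early and late erythroblasts (1.33 ± 0.55, adjusted p = 0.037, and 1.47 ± 0.49, adjusted p = 0.012), with arrays that overlapped those of LSK cells. These calls ended without LSK 2 (0.87 and 1.01, adjusted p = 0.16 and 0.077), without early erythroblast 2 (0.50, adjusted p = 0.47) and without late erythroblast 2 (1.1, adjusted p = 0.066), and the dimmer probe turned the direction (-2.42 and -1.95). Counted in either direction, 6 and 7 of the 7 genes are near the share called among all features.

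**Figure D3:**
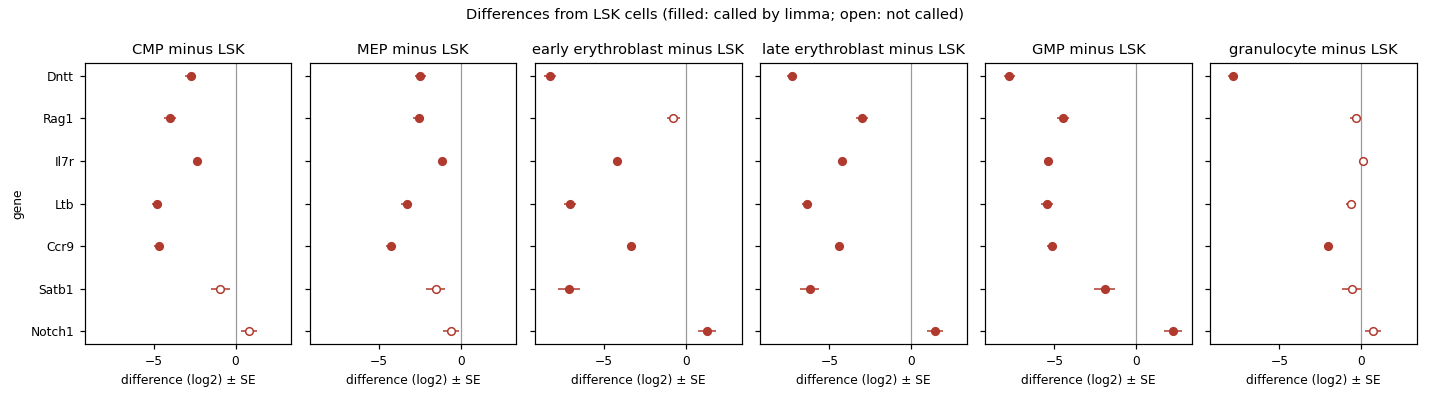
Difference of each cell type from LSK cells (horizontal axes, log2, with the SE) for the 7 genes; filled points passed the limma test and open points did not. Where a cell type had no array well above background, the fitted difference is drawn. Dntt is lower in all 6 panels, 5 genes are lower in CMP and MEP, and in granulocytes only Dntt and Ccr9 are.

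Granulocytes differed from LSK cells in 2 of the 7 genes, both lower, where 68.0% of 24620 features were called, 32.7% higher and 35.3% lower. Dntt was 231-fold lower (-7.85 ± 0.33, adjusted p = 6.3e-11) and Ccr9 4.05-fold lower (-2.02 ± 0.26, adjusted p = 8.4e-06). The other 5 did not pass the test, with differences of -0.61 ± 0.32 for Ltb (adjusted p = 0.11), -0.56 ± 0.58 for Satb1 (adjusted p = 0.40), 0.13 ± 0.21 for Il7r (adjusted p = 0.58) and 0.72 ± 0.49 for Notch1 (adjusted p = 0.21), beside Rag1 above. With the LSK and granulocyte arrays fitted alone, 4 of the 7 were lower, Ltb (adjusted p = 0.0033) and Satb1 (0.0058) among them, and with normexp background correction the same 4. Set against GMP, their progenitors, granulocytes were higher in 4 genes and lower in 1, where 66.6% of features were called, 27.7% higher and 38.9% lower. Ltb was 29.0-fold higher (4.86 ± 0.36, adjusted p = 2.8e-08), Ccr9 8.84-fold higher (3.14 ± 0.29, adjusted p = 2.8e-07), Il7r at least 12.9-fold higher (adjusted p = 1.7e-10) and Rag1 at least 3.85-fold higher (adjusted p = 2.8e-07). Notch1 was lower by its brighter probe (-1.58 ± 0.55, adjusted p = 0.020, and 0.12 without GMP 2) and higher by the dimmer one (1.24, adjusted p = 0.018), while Satb1 differed by 1.36 ± 0.65 (adjusted p = 0.077) and Dntt by -0.10 ± 0.36 (adjusted p = 0.83). Granulocyte arrays shared no slide with LSK or GMP arrays, so no value within a slide could be had. In a fit with the slide as a block, which links them through other cell types, the same genes passed, with -8.12 for Dntt and -1.91 for Ccr9 against LSK cells and 4.79 for Ltb, 3.29 for Ccr9, 6.06 for Il7r and 4.39 for Rag1 against GMP.

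Lymphocyte markers were in large part higher on the same granulocyte arrays than in GMP. The summed level of the 11 B cell markers was 44.1 to 46.8 times the 75th percentile in granulocytes, 18.2 to 20.6 in GMP and 23.5 to 25.2 in LSK cells. It was 6.71 to 9.06 in early and 6.09 to 7.46 in late erythroblasts. Mean levels of Cd79a, Cd22 and Cr2 were higher in late erythroblasts than in granulocytes (-1.11 against -1.92, 1.63 against 0.58 and 0.62 against -0.72). Those of the other B cell markers were lower. In granulocytes against GMP 8 of the 11 were higher and none lower, and against LSK cells 9 were higher and 1 lower. Of all features 27.7% were higher and 38.9% lower against GMP, and 32.7% higher and 35.3% lower against LSK cells. Ms4a1, Fcmr and Fcrla, which B cells carry, were well above background on all 3 granulocyte arrays and on neither GMP array. Ms4a1 was at least 89.6-fold higher than in GMP (adjusted p = 2.2e-10). Of 16 T and NK cell markers tested, 13 were higher than in GMP and 1 lower, while the sum over all 17 was 104 to 109 in granulocytes, 137 to 198 in GMP and 62.6 to 74.9 in LSK cells. In late erythroblasts the sum was 57.2 to 62.8, though Cd3e (mean level 3.97 against 2.15) and Cd8b1 (1.71 against -2.7) stood higher there than in granulocytes. Nkg7, a granule protein of cytotoxic cells, had a mean level of 5.92 in granulocytes and 7.26 in GMP and makes up most of the GMP sum. Of 10 plasmacytoid dendritic cell markers, all well above background on every granulocyte array, 6 were higher than in GMP and 2 lower. Against LSK cells 5 were higher and 3 lower. Their summed level was 358 to 373 in granulocytes, 298 to 357 in GMP and 248 to 295 in LSK cells, but 1330 to 1560 in late erythroblasts. The part of cells that carry any of these markers in the levels of Ltb, Il7r, Rag1 and Ccr9 was not tested.

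Lymphocyte and neutrophil markers were in part lower in CMP than in LSK cells. Of the T and NK cell markers 8 of 15 tested were lower in CMP and none higher, and of the B cell markers 4 of 10 were lower and none higher. In that comparison 13.5% of all features were lower and 23.3% higher. Of the 17 T and NK cell markers 15 were well above background on every LSK array, and Cd8a and Cd8b1, which define cytotoxic T cells, were on none, as in CMP, MEP and GMP. Neutrophil markers were lower for 8 of 8 in CMP, with a summed level of 162 to 295 in CMP and 1190 to 1330 in LSK cells, against 2470 to 2790 in late erythroblasts and 6370 to 7210 in granulocytes. The part of such cells in the LSK levels of the 7 genes was not tested.

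**Figure D4:**
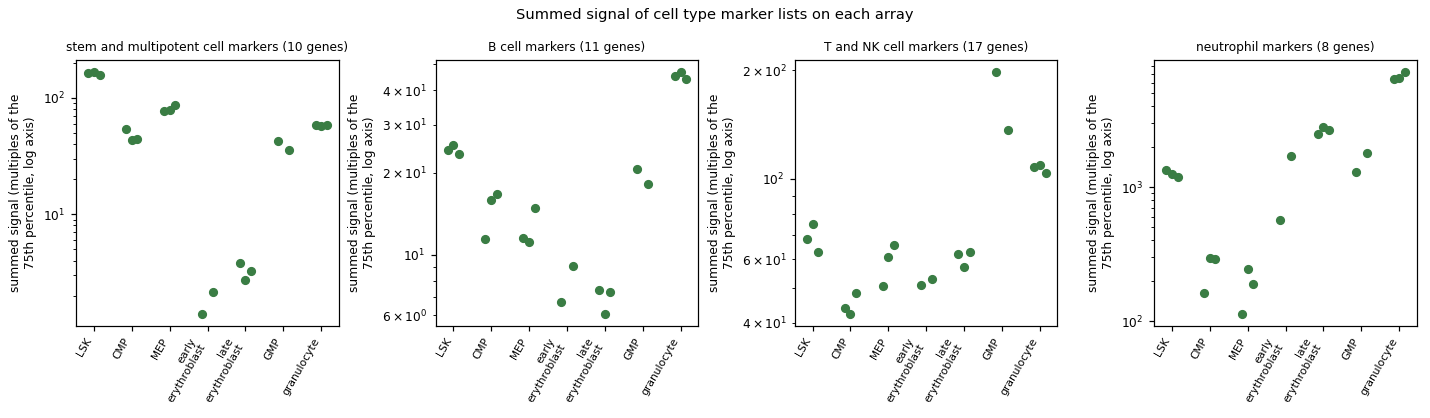
Summed signal of 4 lists of cell type markers on each array (vertical axes, multiples of the 75th percentile, log scale), by cell type. B cell markers are highest in granulocytes at 44.1 to 46.8 and stem and multipotent cell markers in LSK cells at 158 to 167, and neutrophil markers stand between 1190 and 1330 in LSK cells.

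Among the progenitors, MEP had more Il7r and Ltb RNA than CMP, and GMP less Dntt and Il7r RNA. MEP were higher than CMP in 2 of 6 genes tested, Il7r and Ltb, and lower in none, where 4.52% of 22842 features were called, 1.86% higher and 2.65% lower. On the slides shared by both, the difference was 0.86 to 1.64 for Il7r and 0.94 to 1.86 for Ltb. Dntt differed by 0.29 ± 0.32 (adjusted p = 0.76), Ccr9 by 0.42 ± 0.26 (adjusted p = 0.48) and Satb1 by -0.61 ± 0.58 (adjusted p = 0.69). Notch1 differed by -1.42 ± 0.49 by its brighter probe (adjusted p = 0.13, arrays not overlapping, -1.76 to -1.01 on shared slides), and was called lower with the slide as a block (adjusted p = 0.0092), with normexp (0.036) and with the mean of all probes (0.014). Among the T and NK cell markers 3 of 14 tested were higher in MEP and none lower. Of the stem and multipotent cell markers 5 of 9 tested were higher and none lower, with summed levels of 77.2 to 86.1 in MEP and 43.3 to 54.4 in CMP. Of 5 erythroid markers tested 2 were lower in MEP and none higher, and of 7 B cell markers none passed. The part of such cells in the differences of Il7r and Ltb was not tested. GMP were lower than CMP in 2 of 6 genes, Dntt and Il7r, and higher in none, where 18.0% of features were called, 9.53% higher and 8.48% lower, and on the 1 shared slide the differences were -5.38 for Dntt and -3.27 for Il7r. Notch1 differed by 1.49 ± 0.55 by its brighter probe (adjusted p = 0.080), and was called higher with the slide as a block (2.01, adjusted p = 6.4e-04), with CMP and GMP arrays fitted alone (0.040) and with normexp (0.018). Both comparisons share the CMP arrays. The call of Ltb in MEP ended without CMP 2, CMP 3, MEP 2 or MEP 3 (adjusted p = 0.056 to 0.094), and with CMP and MEP arrays fitted alone neither Ltb nor Il7r passed (adjusted p = 0.085 each).

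Other genes of the early lymphoid program went in both directions in CMP and MEP. Of 16 genes of early multipotent and lymphoid-primed progenitors, 5 were lower and 1 higher in CMP than in LSK cells, 4 lower and 2 higher in MEP, and 11 lower and none higher in GMP, with medians of -0.58, -0.35 and -1.42 against 0.17, 0.14 and 0.23 for all features. Of all features 13.5%, 11.9% and 16.1% were lower in these comparisons. Flt3, the receptor that marks lymphoid-primed cells, was lower than in LSK cells in all 6 other cell types. The differences were -1.46 ± 0.30 in CMP (adjusted p = 0.0014), -2.47 ± 0.30 in MEP (adjusted p = 2.3e-05), -5.28 ± 0.34 in GMP (adjusted p = 2.3e-08), -6.95 ± 0.30 in granulocytes (adjusted p = 1.0e-10) and -7.68 ± 0.30 in late erythroblasts (adjusted p = 5.0e-12), and Flt3 was at least 574-fold lower in early erythroblasts (adjusted p = 1.7e-12). In granulocytes, where Il7r and Ltb were high, its mean level was -0.66, against 6.29 in LSK cells. Ebf1, a B lineage transcription factor, was at least 1.99-fold lower in CMP than in LSK cells (adjusted p = 1.9e-04) and at least 10.3-fold higher in granulocytes than in GMP (adjusted p = 7.9e-07). Blnk, a B cell adaptor, fell by 1.49 ± 0.23 in CMP (adjusted p = 1.4e-04), and Cd27, a receptor of lymphocytes and early progenitors, by 1.26 ± 0.21 (adjusted p = 2.7e-04).

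The other genes of recombination and end joining moved in both directions. Of 12 V(D)J recombination and end joining genes, 5 were higher and 2 lower in CMP than in LSK cells, 4 higher and 2 lower in MEP, and 6 higher and 2 lower in GMP. Of all features 23.3%, 18.3% and 27.8% were higher and 13.5%, 11.9% and 16.1% lower, so 2 of 12 lower is near the share of all features. Rag2 was 1 of the 2 lower in each. Polm, a polymerase related to Dntt, was higher by 1.18 ± 0.17 in CMP (adjusted p = 6.2e-05), by 2.05 ± 0.17 in MEP (adjusted p = 5.4e-07) and by 3.27 ± 0.17 in granulocytes (adjusted p = 5.3e-10), in which Dntt was lower.

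Among 12 interleukin-7 receptor partners and signalling genes, 7 were lower and 2 higher in CMP, 4 lower and 1 higher in MEP, and 8 lower and 1 higher in GMP, where 13.5%, 11.9% and 16.1% of all features were lower. Cish, a feedback inhibitor that STAT5 induces, differed by -2.47 ± 0.19 in CMP (adjusted p = 2.8e-07), -1.71 ± 0.19 in MEP (adjusted p = 1.2e-05) and -3.75 ± 0.22 in GMP (adjusted p = 8.0e-09), and Socs1, another inhibitor of cytokine signalling, by -1.35 ± 0.28 in CMP (adjusted p = 0.0013). Of 10 lymphotoxin pathway genes, 5 were lower and none higher in CMP. Lta, the partner of lymphotoxin beta, was at least 2.36-fold lower there (adjusted p = 2.8e-05), and the NF-kB subunit gene Relb fell by 1.93 ± 0.26 (adjusted p = 3.6e-05). In granulocytes 5 of the 10 were higher than in LSK cells and none lower, where 32.7% of all features were higher and 35.3% lower.

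Of 24 Notch pathway genes tested, 12 were lower and 5 higher in CMP than in LSK cells, and of 25 tested in GMP 15 were lower and 4 higher, where 13.5% and 16.1% of all features were lower. Hes1, a target that Notch signalling switches on, was well above background on none of the 3 CMP and neither of the GMP arrays, and was at least 4.94-fold lower in CMP (adjusted p = 2.6e-05) and at least 2.57-fold lower in GMP (adjusted p = 1.1e-04). Dtx1, another target, was at least 2.53-fold lower in CMP (adjusted p = 0.0010), and Nrarp at least 4.21-fold lower in GMP (adjusted p = 6.9e-08). Dtx4, of the same list, went the other way, with mean levels of 1.64 in LSK cells, 2.87 in CMP and 4.61 in GMP. In granulocytes Dtx1 had a mean level of -0.76, against -3.61 in LSK cells. Rbpj, the DNA-binding partner of activated Notch, differed by -0.11 ± 0.13 in CMP (adjusted p = 0.55) and 0.18 ± 0.15 in GMP (adjusted p = 0.37). Of 7 thymus homing and chemokine receptor genes tested with Ccr9 left aside, 3 were higher and 2 lower in CMP, where 23.3% of all features were higher and 13.5% lower. S1pr1, a receptor for exit from tissues, fell by 1.96 ± 0.32 (adjusted p = 2.2e-04), Ccr7, a lymph node homing receptor, by 1.36 ± 0.39 (adjusted p = 0.013), and Cxcr4, which holds progenitors in the marrow, was higher by 0.82 ± 0.20 (adjusted p = 0.0045).

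All 7 genes varied over the 7 cell types by limma's moderated F test, as did 95.6% of 26224 features. Dntt and Il7r stood high in that order, with 8.58% and 9.06% of features having a larger F. Notch1, by its brighter probe, had 87.3% above it. As a description over the 19 arrays, which share cell types and slides, the closest pair among the 7 was Ltb and Il7r (r = 0.902), followed by Rag1 and Ccr9 (0.864) and Ltb and Ccr9 (0.791). Rag1 was well above background on 9 of the 19 arrays and Il7r on 12, so their correlations rest in part on levels at background. Dntt was not close to Rag1 (0.099) and reached 0.592 with Satb1. By its brighter probe, Notch1 had negative values with each of the other 6, from -0.682 with Il7r to -0.326 with Rag1. The dimmer Notch1 probe, which did not follow the brighter one (r = -0.03), was not set against the other 6.

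Among 11441 other named genes that were detected and ranged over at least 2 log2 units between cell types, those most like Dntt were Sgce, Prkg1 and Slc35d3 (r = 0.981, 0.980 and 0.979 over 19 arrays). Rag1 was most like Hes1 (0.915), Crybg1 (0.896) and Il2ra (0.889), with Ccr9 in 6th place. Rag1 was well above background on only 9 of the 19 arrays, and Hes1 on no CMP, GMP or erythroblast array. The r of Rag1 and Hes1 therefore rests in part on levels at background, which sit higher on erythroblast arrays. Ltb was most like Hid1 (0.985), Gabbr1 (0.973) and Thy1 (0.971), and Il7r most like Nsg2 (0.977), Lypd6b (0.966) and Icos (0.962). Ccr9 was most like Speer2 (0.951), Cxcr6 (0.950) and Gas6 (0.927), and Satb1 most like Zfp608 (0.985), Tgfbr2 (0.984) and Gm4907 (0.982). The brighter Notch1 probe was most like Cmya5 (0.991), B020031M17Rik (0.989) and Pnma2 (0.979).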

How the data were processed

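Feature Extraction 11.5.1.1 had turned the deposited scans into background-corrected intensity per spot, per the file headers (protocol GE1_1105_Oct12, 1 channel, array annotation on mm9), and RNA was labelled with Cy5, per the labels' protocols. The deposited series table holds the authors' background-subtracted intensity and served as an alternative. Here, log2 intensity minus the array's 75th percentile was taken over 61224 spots that are not controls, without spots marked as outliers (0 spots were saturated). Spots of a probe were averaged, and the brightest probe per gene was kept. RefSeq accessions named 27235 of 59628 probes. limma 3.58.1 in R 4.3.3 fitted 7 cell type means to 19 arrays, with Benjamini-Hochberg adjustment over all features and a threshold of 0.05. Testing a feature required signal well above background throughout one of the compared cell types, and a call required it throughout the higher one. The number of arrays limits the precision. Members, pathway lists and markers were chosen with earlier results of these data known. Named were the 7 genes, a set of direct partners, genes past the test in each list (up to 4 in CMP, up to 3 elsewhere) and the 3 genes most alike. In some lists, genes with larger differences than those named were left out. The markers Ighm, Ly6g and Hbb-b1 could not be named on the array, and some list genes are not reported here. The fit was tested on simulated data. Alternatives were normexp (offset 50, on the median spot signal), quantile scaling, another percentile, the mean of all probes, no filter, slide and replicate blocks, smaller fits, the authors' table and arrays left out. The dimmer Notch1 probe was added after the data were seen.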

Additional observations from a re-analysis of the deposited data

How the results depend on the processing

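Of the values of single genes, 555 kept their side of the threshold under other settings, 34 passed it only there and 13 no longer passed it. Another 8 turned, which was counted only where the main fit or the other setting called the gene. A value called in neither that changed its sign is among the 555. With arrays left out the counts were 324, 2, 13 and 0. By design, the dimmer Notch1 probe changed the levels of Notch1 alone. The mean of all probes changed those of Notch1 and Rag1 alone among the 7. Turned values were 0.33 for Rag1 in late erythroblasts against LSK cells (normexp), -0.54 and -0.24 for Notch1 in early and late erythroblasts (mean of all probes), and, with the dimmer Notch1 probe, -1.07 in CMP, -0.98 in GMP, -2.42 in early and -1.95 in late erythroblasts against LSK cells and 1.24 in granulocytes against GMP. The counts of the 7 genes in CMP and MEP against LSK cells moved under none of these settings by over 1.5 times, a cut too wide to mark 1 more gene. Satb1 was newly called lower in both with normexp, with the compared groups alone and with the authors' table. In MEP it was also called with the percentile over detected probes. Notch1 was newly called lower in MEP with the slide as a block, the mean of all probes or the dimmer probe, and in CMP with the dimmer probe. With normexp, 4 genes were lower in granulocytes than in LSK cells, 2 lower in MEP than in CMP and 1 higher in GMP than in CMP. With quantile scaling, 0 were higher in early erythroblasts than in LSK cells and 1 higher in MEP than in CMP. With the percentile over probes detected on all arrays, 0 were higher in early erythroblasts and 0 lower in granulocytes than in GMP. With the mean of all probes or the dimmer Notch1 probe, 0 were higher in GMP, early or late erythroblasts than in LSK cells and 0 lower in granulocytes than in GMP, and with the mean of all probes 1 was lower in MEP than in CMP. With the slide as a block, 1 was lower in MEP and 1 higher in GMP than in CMP. With the compared groups alone, 0 were higher in either erythroblast than in LSK cells, 4 lower in granulocytes than in LSK cells, 0 higher in MEP and 1 higher in GMP than in CMP. The causes were not tested, except that Notch1 alone accounts for the counts given here that change with its probes.

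With 1 array left out at a time, the count of genes higher than in LSK cells was 0 to 1 in early erythroblasts (0 without LSK 2 or early erythroblast 2) and 0 to 1 in late erythroblasts (0 without LSK 2 or late erythroblast 2). The count higher in MEP than in CMP was 1 to 2, and the count lower in granulocytes than in GMP was 0 to 1 (0 without GMP 2). Over all features, MEP against CMP gave 1032 calls, but 2002 with normexp, 644 without the filter, 1640 with the authors' table, 302 to 525 without CMP 2, CMP 3, MEP 2 or MEP 3, and 0 in limma with these groups alone, where 4268 had an unadjusted p under 0.05. Without the filter, 29771 features were called in early and 31688 in late erythroblasts against LSK cells, against 19481 and 19767 with it. The share of calls that were higher than in LSK cells was 63.4% in CMP, 60.7% in MEP and 63.4% in GMP, but 51.2%, 50% and 47.6% with quantile scaling and 32.3%, 35.6% and 28.4% with the percentile over detected probes. With that percentile the median of all features was -0.15 in CMP (0.17 otherwise) and -0.25 in GMP (0.23 otherwise). It also made 62.9% of calls higher in MEP than in CMP (41.3% otherwise), 36.0% higher in GMP than in CMP (52.9% otherwise; 41.9% with quantile scaling and 63.2% with normexp) and 52.7% higher in granulocytes than in GMP (41.6% otherwise). Without the filter, 70.6% and 66.8% of calls were higher in early and late erythroblasts (54.4% and 46.5% with it).

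Arrays with the same replicate number did not deviate together in the median (correlation -0.02 over 52 pairs of different cell types, 16 of them over 0.1). Arrays of 1 slide did (0.27 over 30 pairs). The same-number pairs ran from -0.52 to 0.48, and deviations were taken from means of only 2 or 3 arrays. These values therefore cannot settle whether the numbers pair the samples, and the main fit used no pairing. With a replicate block, 1 call among the 7 genes changed, Rag1 in early erythroblasts against LSK cells (-0.87, adjusted p = 0.018). Dim signal limits Rag1, Il7r and the dimmer Notch1 probe, whose levels are only bounds where no array was well above background, and Satb1 and Ccr9 in erythroblasts, where only some arrays were.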
